A study of Homo sapiens with 16 samples.

Results

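VCaP cells that had lived in enzalutamide (1 µM) for 4 months were given this antiandrogen drug again after steroid starvation and compared with the same cells in control medium. The comparison used the 4 libraries labelled Ver-control and Ver-1uM-enzalutamide (2 each) of the 16 libraries in the series, chosen by their labels alone. Both groups share the cell line VCaP, the 4 months of pretreatment, a starvation of 48 h or more in medium with serum stripped by charcoal and no phenol red, and a final 24 h that ended with RNA extraction. They differ only in whether those 24 h held 1 µM enzalutamide. The series' other pairings used for comparison are Vc, the VCaP line kept for 4 months in ethanol, with and without 1 µM enzalutamide for 24 h, Vc with and without 1 nM dihydrotestosterone (DHT), the potent natural androgen, and Ver given DHT with and without enzalutamide. Each of these groups also has 2 libraries. Ver and Vc are 1 line each, the labels do not say whether the 2 libraries of a group came from separate cultures, and they do not say how long the drug was absent before it was given back.

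VCaP is a human prostate cancer line with an amplified androgen receptor gene and a fusion that places the ETS transcription factor ERG under the androgen-driven promoter of TMPRSS2. The androgen receptor is a nuclear receptor. Bound to an androgen it enters the nucleus, occupies DNA elements near its target genes and raises or lowers their transcription. Enzalutamide competes with androgen for the ligand pocket and hinders nuclear entry and DNA binding. In prostate epithelium the receptor drives secretory proteases such as KLK2, the lipid and protein synthesis that secretion needs, and the endoplasmic reticulum (ER) machinery that folds secreted proteins. Since the medium was stripped of steroids, the comparison asks what the drug does in previously exposed cells when little androgen is present.

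The 4 libraries held 8155244 to 10560260 reads counted in genes, the lowest in enzalutamide library 1. The 16 libraries held 8155244 to 13273523. Levels are given as CPM, the reads of a gene relative to all gene reads of the library with library sizes scaled by edgeR's TMM method. CPM values of different genes are not compared because genes differ in length. All Ver libraries carry the same sequencing lane in their labels, so lane does not separate the groups. All Vc libraries carry another lane, so lane and line cannot be told apart. Over 12428 well-expressed genes the standard deviation of the log2 difference was 0.22 between the 2 control libraries and 0.23 between the 2 enzalutamide libraries. It was 0.24 to 0.26 between a control and an enzalutamide library. The label of the cells was checked against markers: all 14 VCaP and prostate luminal markers were measured, and their summed level was 14617 and 14919 CPM in the control libraries and 14410 and 14154 CPM with enzalutamide. Of 14 immune markers 3 passed the filter on low counts, and their sum was 6.17 to 7.86 CPM in the 4 libraries.

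A gene was called changed at a Benjamini-Hochberg adjusted p under 0.05 in edgeR's two-sided quasi-likelihood test, adjusted over all 22553 genes tested. Every adjusted p below comes from that test unless another tool is named. With enzalutamide 255 genes were called in Ver, 1.13% of those tested. Of these 106 were higher (0.47%) and 149 lower (0.661%), and 2097 genes had an unadjusted p under 0.05. The changes were small. Among higher genes the median was 1.27-fold and 2 genes rose at least 2-fold. Among lower genes the median was 1.28-fold and 4 genes fell at least 2-fold. The median log2 change of all genes tested was -0.01. The 2 control libraries and the 2 enzalutamide libraries did not overlap in any called gene, but they also did not overlap in 37.5% of all genes tested, so separation alone says little here. Called genes were well expressed, with a median of 91.4 CPM (higher) and 79.9 CPM (lower) against 7.24 CPM over all genes tested. Without control library 2 the count was 112, without enzalutamide library 1 it was 122 and without enzalutamide library 2 it was 159. Of the 255 calls, 47 (34 lower, 13 higher) were made in the main fit and under each of 11 alternatives, and no call took the other sign under any of them.

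**Figure D1:**
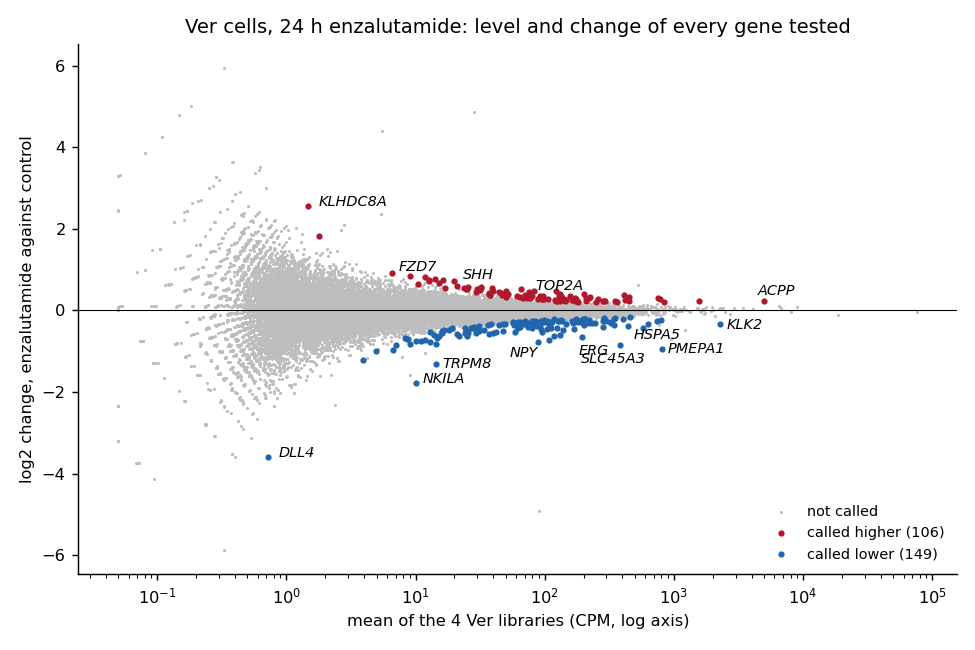
Each point is 1 of the 22553 genes tested, placed by its mean over the 4 Ver libraries (CPM, log axis; means under 0.05 CPM are drawn at 0.05) and by its log2 change with enzalutamide. Red points are the 106 genes called higher and blue points the 149 called lower; most lie within 1 log2 unit of no change, with NKILA and TRPM8 furthest below it among called genes above 5 CPM.

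Androgen-induced genes were among the strongest falls. Of 53 tested genes on a list of androgen-induced genes, 15 fell and 1 rose, against 0.661% and 0.47% of all genes. The median log2 change of the list was -0.16. PMEPA1, a membrane protein that dampens TGF-beta signalling (chromosome 20, 57648392 to 57711536, GRCh38), stood at 1026 and 1088 CPM in the control libraries and at 575 and 528 CPM with enzalutamide. Its log2 change was -0.94 ± 0.05 (SE, adjusted p = 1.73e-39), which left 52.1% of the control level. SLC45A3, the prostate solute carrier also known as prostein (chromosome 1, 205657851 to 205680459), was at 464 and 513 CPM in control and at 266 and 281 CPM with the drug. Its log2 change was -0.84 ± 0.05 (adjusted p = 1.08e-31).

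The cold-sensing cation channel gene TRPM8 (chromosome 2, 233917398 to 234019522) had 22.2 and 18.5 CPM in control and 9.20 and 7.44 CPM with enzalutamide. Its log2 change of -1.301 ± 0.134 (adjusted p = 6.64e-15) was the largest on the androgen-induced list. Of 9 tested genes on a list of the TRPM family and TRPV6, TRPM8 was the only one called, against 1.13% of all genes tested. TRPM2 stood at 27.2 and 30.1 CPM in control and 23.6 and 25.2 CPM with the drug (adjusted p = 0.555).

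Both partners of the VCaP fusion fell. ERG (chromosome 21, 38380027 to 38661780) was at 240 and 233 CPM in control and at 150 and 153 CPM with enzalutamide, a log2 change of -0.64 ± 0.06 (adjusted p = 1.34e-18). TMPRSS2, the membrane serine protease whose promoter drives the fusion (chromosome 21, 41464551 to 41531116), was at 159 and 162 CPM in control and at 109 and 121 CPM with the drug. Its log2 change was -0.48 ± 0.06 (adjusted p = 6.73e-10). ERG was also the only called gene among 20 tested genes on a list of ERG targets, against 1.13% of all genes tested. The median log2 change of that list was 0.04. SNRPGP13, a processed pseudogene on the opposite strand inside ERG, fell by 0.83 on the log2 scale. The counting took no account of strand, so its reads and those of ERG cannot be told apart.

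The secreted kallikrein KLK2 had 2490 and 2605 CPM in control and 2040 and 2031 CPM with enzalutamide (log2 change -0.32 ± 0.04, adjusted p = 1.04e-09). The related protease KLK3, which encodes prostate-specific antigen, was not called at 39.2 and 36.9 CPM in control and 35.4 and 31.9 CPM with the drug (log2 change -0.18 ± 0.10, adjusted p = 0.604). FKBP5, a co-chaperone of steroid receptors, was not called either, with 69.0 and 74.1 CPM against 61.4 and 60.5 CPM (log2 change -0.23 ± 0.09, adjusted p = 0.31). It was called in the fit with the replicate number as a block (adjusted p = 0.0479). In Vc, DHT raised FKBP5 by 4.79 log2 units, KLK3 by 1.46 and TRPM8 by 0.89. ZBTB16, a zinc finger repressor induced by androgens and glucocorticoids, fell from 140 and 148 CPM to 95.5 and 90.2 CPM (log2 change -0.64 ± 0.06, adjusted p = 7.05e-16). Other members that fell were ZBTB10, STEAP1, ELL2, HOMER2, PLPP1, TMEM79 and KCNN2. HPGD, which breaks down prostaglandins, went the other way, from 85.5 and 86.8 CPM to 108 and 107 CPM (log2 change 0.32 ± 0.07, adjusted p = 0.00234). Without single libraries 11 to 14 members of the list were lower.

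**Figure D2:**
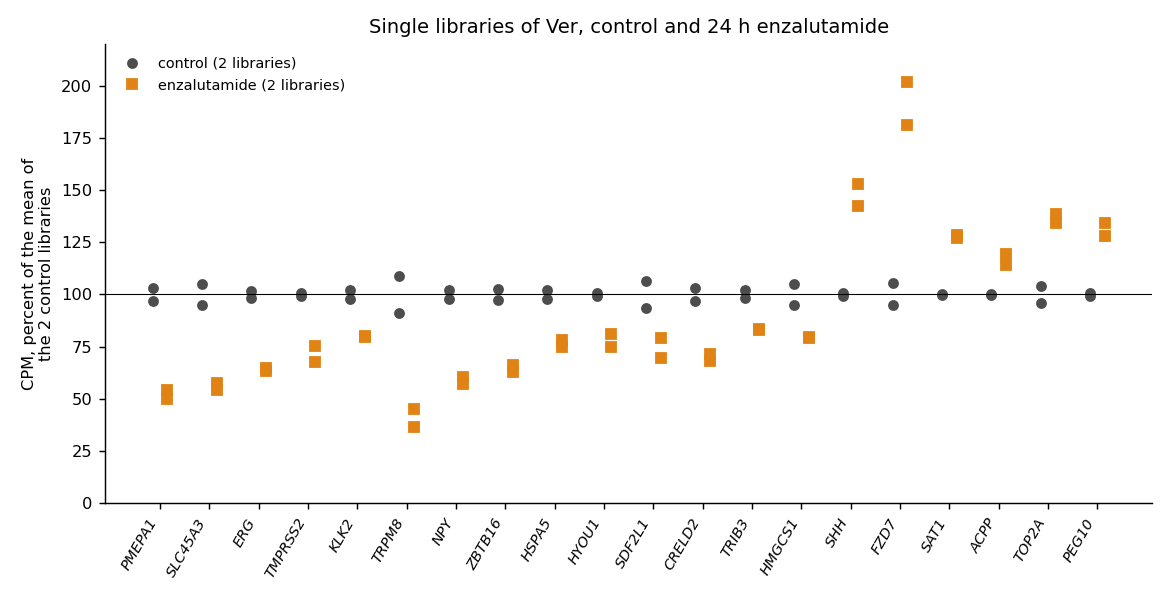
Each point is 1 library: grey circles are the 2 Ver control libraries and orange squares the 2 enzalutamide libraries, as CPM in percent of the mean of the 2 controls for each of 20 genes. The enzalutamide libraries lie below both controls from PMEPA1 to HMGCS1 and above both from SHH to PEG10.

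The androgen receptor transcript itself was not called in Ver, with 6205 and 6329 CPM in control and 6905 and 6709 CPM with enzalutamide (log2 change 0.12 ± 0.04, adjusted p = 0.161), though DESeq2 called it higher (adjusted p = 0.0195). Genes that androgens repress gave few calls: of 22 tested on that list edgeR called none higher (5 at an unadjusted p under 0.05, and 1 called by DESeq2), and the median log2 change was 0.07. UGT2B15, a glucuronidation enzyme that inactivates androgens, had 86.7 and 83.5 CPM in control and 111 and 96.7 CPM with enzalutamide (adjusted p = 0.126). No other gene of the 8 tested on a list of UGT2B genes and suppliers of their substrate had an unadjusted p under 0.05, and UGT2B15 was called in 1 of 12 fits, that of the 4 libraries alone (adjusted p = 0.0385). MYC had 315 and 323 CPM in control and 353 and 333 CPM with the drug (adjusted p = 0.54). The list's only call was CHRNA2, an acetylcholine receptor subunit, which fell from 126 and 134 CPM to 97.5 and 93.9 CPM (log2 change -0.44 ± 0.06, adjusted p = 6.68e-08), and in Vc it rose with DHT by 1.43 log2 units. NR3C1, which encodes the glucocorticoid receptor, was at 12.6 and 9.21 CPM in control and 13.8 and 8.99 CPM with enzalutamide (log2 change 0.05 ± 0.20, adjusted p = 0.977). Its libraries overlapped, and the 2 replicates of each group differed more than the groups. Among 17 tested glucocorticoid receptor targets 2 fell, ZBTB16 and the metallothionein MT2A, against 0.661% of all genes tested. The call of MT2A was lost without control library 1 (adjusted p = 0.337), enzalutamide library 1 (adjusted p = 0.102) or enzalutamide library 2 (adjusted p = 0.156).

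A second group with many falls was that of the ER chaperones and the unfolded protein response, the program by which cells match folding capacity in the ER to the load of secreted proteins. All 28 listed genes were tested. By edgeR 11 fell and none rose, against 0.661% and 0.47% of all genes tested. Of the 28, 20 had an unadjusted p under 0.05, against 2097 of all 22553 genes tested. Every one of the 28 log2 changes was below 0 (median -0.22), against 11539 of all 22553 genes tested. HSPA5, the central ER chaperone also called BiP (chromosome 9, 125234853 to 125241330), had 514 and 492 CPM in control and 392 and 377 CPM with enzalutamide. Its log2 change was -0.39 ± 0.05 (adjusted p = 9.58e-10). HYOU1, which exchanges nucleotide on HSPA5, fell from 385 and 392 CPM to 315 and 291 CPM (log2 change -0.36 ± 0.05, adjusted p = 8.93e-08). MANF, a secreted ER stress protein, fell from 57.9 and 53.9 CPM to 38.5 and 40.8 CPM (log2 change -0.49 ± 0.08, adjusted p = 5.13e-06).

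CRELD2, a disulphide isomerase of the ER, fell from 35.5 and 37.9 CPM to 25.1 and 26.3 CPM (adjusted p = 0.000186). The folding factors PDIA4, CALR, HSP90B1 and SDF2L1 and the degradation factors HERPUD1, SEL1L and DERL3 were the other 7 that fell. DERL3 overlaps SMARCB1 on the opposite strand. The transcription factors of the pathway were not called: XBP1 changed by -0.02 log2 units, ATF6 by -0.13 and ATF4 by -0.16. Without control library 1, enzalutamide library 1 or enzalutamide library 2 the number that fell was 7, and without control library 2 or by DESeq2 it was 8. HSPA5, HYOU1, MANF and CRELD2 were called in the main fit and in each of the 11 alternatives.

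A recognised promoter sequence through which ATF6 acts is the ER stress element: CCAAT, 9 bases of any kind, then CCACG. It was searched on both strands in windows from 250 bases before to 50 bases after the annotated start (RefSeq, GRCh38.p14, the first start listed for each gene). Of the 113 promoters found for genes called lower, 5 held it (4.42%), against 14 of 11857 promoters of genes tested (0.118%) and none of the 71 found for genes called higher. These are a description of the letters and show no binding. The 6 copies, 2 of them at HSP90B1, are printed from CCAAT to CCACG with the fixed bases in capitals, to show how little the spacer between the fixed parts has in common.
HSPA5, chr9:125241391-125241409, minus strand: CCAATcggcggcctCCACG
CRELD2, chr22:49918554-49918572, minus strand: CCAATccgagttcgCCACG
CALR, chr19:12938384-12938402, minus strand: CCAATgatggtcgaCCACG
HSP90B1, chr12:103930216-103930234, plus strand: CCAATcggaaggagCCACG
HSP90B1, chr12:103930321-103930339, minus strand: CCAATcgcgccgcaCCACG
FICD, chr12:108515123-108515141, plus strand: CCAATgggagtggcCCACG

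Of these genes 4 are on the list. FICD, which modifies HSPA5 by adding AMP, was among the called genes but not on the list. FICD fell from 17.9 and 20.8 CPM to 14.03 and 13.89 CPM (adjusted p = 0.0379), a call lost by DESeq2 (adjusted p = 0.0759) and without control library 2 (adjusted p = 0.539), enzalutamide library 1 (adjusted p = 0.192) or enzalutamide library 2 (adjusted p = 0.257). Of the 10 called list members with a promoter in the table, 4 held the element and all 10 held a CCAAT box somewhere in the window, against 36.2% of promoters of genes tested. The box is part of the element, so these 2 shares overlap. In HSPA5 the element begins 66 bases before the annotated start. The 250 bases upstream of HSPA5 (chr9:125241344-125241593, minus strand, GRCh38.p14) are given with the 2 fixed parts of the element in capitals, since HSPA5 had the smallest adjusted p on the list.
HSPA5: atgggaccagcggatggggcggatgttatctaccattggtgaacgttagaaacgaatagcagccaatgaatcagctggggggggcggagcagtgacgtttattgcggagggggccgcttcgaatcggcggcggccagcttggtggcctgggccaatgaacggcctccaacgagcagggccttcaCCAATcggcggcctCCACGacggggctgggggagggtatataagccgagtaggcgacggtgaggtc

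One arm of the androgen receptor element, AGAACA, searched on both strands, was in 7 of the 113 promoters of genes called lower (6.19%) and in 9.56% of promoters of genes tested. The palindrome of such arms 3 bases apart was in none of the promoters of called genes and in 1 of all 27305 in the table. The window covers only the start region, and many androgen receptor sites lie far from it.

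Genes of amino acid supply were also among the falls. Of 23 genes on a list of the amino acid response, the ATF4-linked program for amino acid uptake and synthesis, 7 fell and none rose. Among all genes tested 0.661% fell and 0.47% rose. Of the 23, 11 had an unadjusted p under 0.05, all lower (median log2 change of the list -0.19). The cystine transporter SLC7A11 had 77.5 and 61.7 CPM in control and 48.3 and 48.0 CPM with enzalutamide, a log2 change of -0.53 ± 0.10 (adjusted p = 0.00284). PSAT1, an enzyme of serine synthesis, fell from 129 and 120 CPM to 103 and 102 CPM (log2 change -0.28 ± 0.06, adjusted p = 0.0023). The arginine transporter SLC7A1, the transporter heavy chain SLC3A2, the pseudokinase TRIB3, the transcription factor CEBPB and the proline synthesis enzyme PYCR1 also fell. The calls depended on single libraries: 4 genes were lower without control library 1, 3 without control library 2, 3 without enzalutamide library 1 and 1 without enzalutamide library 2. The median of the list stayed between -0.17 and -0.20 in these fits.

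Cholesterol synthesis showed 4 falls and no rise among 26 tested genes, against 0.661% and 0.47% of all genes tested. Of the 26, 7 were lower at an unadjusted p under 0.05, against 2097 of all 22553 genes tested in either direction. The median log2 change of the list was -0.12. HMGCS1, which makes HMG-CoA, fell from 127 and 115 CPM to 96.5 and 95.9 CPM (log2 change -0.33 ± 0.06, adjusted p = 0.000107). MVK, the kinase that acts on mevalonate, fell from 42.3 and 39.3 CPM to 31.4 and 31.95 CPM (log2 change -0.36 ± 0.09, adjusted p = 0.0184). Without control library 1 the number was 1, without control library 2 or enzalutamide library 2 it was 2, and it was 1 in a fit of the 4 libraries alone. The call of HMGCS1 was lost without control library 1 (adjusted p = 0.0739) and that of MVK without any 1 library (adjusted p = 0.0521 to 0.293). Of 26 tested fatty acid synthesis genes none was called, 1 was lower without enzalutamide library 1, and 7 had an unadjusted p under 0.05 (3 higher, 4 lower, median -0.06). In the secretory pathway itself, 33 of 38 transport genes had a log2 change below 0, against 11539 of all 22553 genes tested. SSR3 alone was called (206 and 194 CPM against 175 and 161 CPM, adjusted p = 0.00232). Its call was lost without control library 1 (adjusted p = 0.173) or enzalutamide library 2 (adjusted p = 0.227). Of 33 glycosylation genes the sialyltransferase ST6GAL1 rose and GMPPB, which makes GDP-mannose, fell, against 0.47% and 0.661% of all genes tested. ST6GAL1 lost its call without control library 1 (adjusted p = 0.227) or enzalutamide library 1 (adjusted p = 0.215), and GMPPB without control library 1 (adjusted p = 0.136) or enzalutamide library 2 (adjusted p = 0.204). VEGFA, the vascular growth factor, was the only call among 27 tested genes of hypoxia and glycolysis, against 1.13% of all genes tested. It had 106 and 100 CPM in control and 84.3 and 78.2 CPM with enzalutamide (adjusted p = 0.000129). Without enzalutamide library 2 its adjusted p was 0.055.

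**Figure D3:**
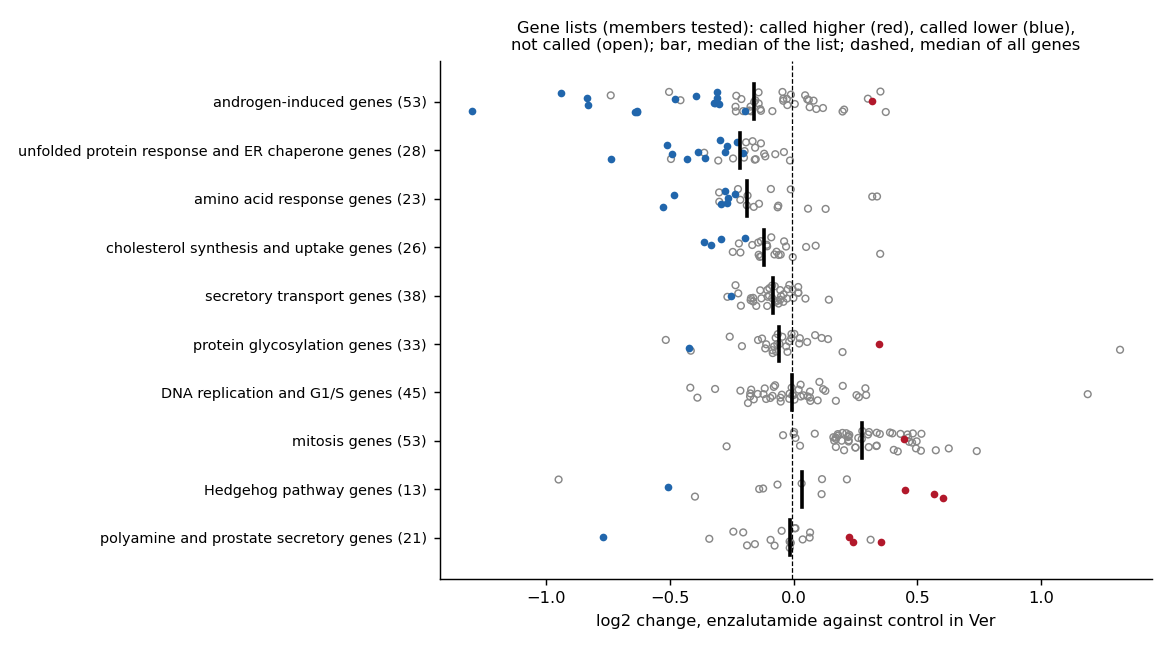
Each point is 1 tested gene of the named list (number of tested genes in parentheses), placed by its log2 change with enzalutamide in Ver; vertical jitter has no meaning. Blue points were called lower, red points higher and open points were not called; the bar is the list median and the dashed line the median of all genes. ER chaperone genes lie wholly below 0, and 50 of 53 mitosis genes lie above 0 with TOP2A alone called.

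Among the rises the smallest adjusted p belonged to PEG10, a retrotransposon-derived gene on chromosome 7 (94656325 to 94669695) that is known from growth of castration-resistant prostate cancer. It had 355 and 352 CPM in control and 474 and 452 CPM with enzalutamide (log2 change 0.39 ± 0.05, adjusted p = 1.14e-08). The sorting receptor gene SORL1 rose from 109 and 96.8 CPM to 140 and 146 CPM (log2 change 0.48 ± 0.07, adjusted p = 1.05e-07). MIR99AHG, the host transcript of the miR-99a cluster, rose from 185 and 159 CPM to 234 and 224 CPM (log2 change 0.42 ± 0.06, adjusted p = 3.4e-07). For each of these 3 genes both enzalutamide libraries exceeded both controls, as they did for all 106 genes called higher. The groups also did not overlap, in either direction, in 37.5% of all genes tested, so this separation adds little to the calls.

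Ligands of the Hedgehog pathway rose. These secreted morphogens are lipid-modified in the producing cell and act through PTCH receptors and the GLI transcription factors. SHH (chromosome 7, 155799986 to 155812273) had 26.0 and 26.3 CPM in control and 37.3 and 40.0 CPM with enzalutamide, a log2 change of 0.57 ± 0.10 (adjusted p = 2.14e-05). IHH rose from 24.9 and 24.3 CPM to 33.6 and 33.8 CPM (log2 change 0.45 ± 0.11, adjusted p = 0.00775), and HHAT, the acyltransferase that adds palmitate to the ligands, from 15.5 and 17.9 CPM to 26.6 and 24.3 CPM (log2 change 0.60 ± 0.15, adjusted p = 0.014). The co-receptor gene BOC fell from 19.5 and 18.3 CPM to 14.5 and 12.3 CPM (adjusted p = 0.0466). The other 9 of 13 tested members were not called. Among all genes tested 0.47% were called higher and 0.661% lower. The call of SHH was kept under all 11 alternatives. Those of IHH and HHAT were lost when any 1 of the 4 libraries was left out (adjusted p = 0.0549 to 0.147 for IHH and 0.0593 to 0.281 for HHAT), and that of BOC held in only 3 of 12 fits.

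Of 21 tested genes for polyamine metabolism and prostate secretion 3 rose and 1 fell, against 0.47% and 0.661% of all genes tested. SAT1, which acetylates spermidine and spermine for export, had 137 and 137 CPM in control and 175 and 177 CPM with enzalutamide (log2 change 0.35 ± 0.06, adjusted p = 5.45e-06). ACPP, prostatic acid phosphatase, rose from 4565 and 4572 CPM to 5453 and 5205 CPM (log2 change 0.22 ± 0.04, adjusted p = 0.000296). FOLH1, prostate-specific membrane antigen, rose from 425 and 395 CPM to 504 and 464 CPM (adjusted p = 0.0048), a call lost without control library 2 (adjusted p = 0.336) or enzalutamide library 1 (adjusted p = 0.312). The neuropeptide gene NPY moved against them, from 114 and 109 CPM to 67.4 and 63.7 CPM, a log2 change of -0.77 ± 0.07 (adjusted p = 2.38e-18).

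By size of change, the rises among genes with a mean of at least 5 CPM were led by the WNT receptor FZD7 (4.27 and 4.74 CPM in control, 9.09 and 8.17 CPM with enzalutamide, log2 change 0.93 ± 0.26, adjusted p = 0.0362). This call was not made in any fit that left out 1 of the 4 libraries (adjusted p = 0.133 to 0.30). The prostaglandin receptor PTGER2 rose by 0.75 log2 units, the sterol exporter ABCG1 by 0.71 and the guanine nucleotide exchange factor VAV3 by 0.67, each from a control level under 20 CPM. The calls of PTGER2 and VAV3 were lost without any 1 library (adjusted p = 0.0506 to 0.222 and 0.0586 to 0.273), and that of ABCG1 without control library 1 (adjusted p = 0.12) or enzalutamide library 1 (adjusted p = 0.0734). The falls were led by NKILA, an antisense RNA that overlaps the start of PMEPA1, from 14.9 and 16.2 CPM to 5.18 and 3.99 CPM (log2 change -1.78 ± 0.19, adjusted p = 9.42e-14). Because strand was not used in counting, NKILA and PMEPA1 cannot be told apart where they overlap. ARHGEF26, a guanine nucleotide exchange factor, fell from 138 and 131 CPM to 84.9 and 78.4 CPM (log2 change -0.72 ± 0.06, adjusted p = 6.51e-18). The largest fitted change among all called genes, in the Notch ligand gene DLL4, rests on 29 reads in the 2 control libraries and 2 reads with enzalutamide. The ratio of the depth-scaled reads was 0.0752, with an exact 95% interval of 0.0087 to 0.297 that covers counting error only (adjusted p = 0.0287, lost without any 1 library).

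Most genes of cell division had values slightly above 0, but 1 passed the test. Of 53 mitosis genes 50 had a log2 change above 0, against 11008 of all 22553 genes tested, and the list median was 0.28. At an unadjusted p under 0.05 there were 19 higher and none lower, against 2097 of all 22553 genes tested in either direction. Only TOP2A, the DNA topoisomerase of dividing cells, was called, against 0.47% of all genes tested called higher. TOP2A had 66.2 and 60.8 CPM in control and 87.9 and 85.3 CPM with enzalutamide (log2 change 0.45 ± 0.08, adjusted p = 4.03e-05). The proliferation marker MKI67 had 33.1 and 41.6 CPM in control and 45.1 and 49.9 CPM with the drug (log2 change 0.35 ± 0.10, adjusted p = 0.0618), and was called higher without control library 2 (adjusted p = 0.0141). CCNA2, an S and G2 phase cyclin, had 4.65 and 5.01 CPM against 8.40 and 7.81 CPM (adjusted p = 0.208). Of 45 genes of DNA replication edgeR called none (3 at an unadjusted p under 0.05, and 1 was called lower by DESeq2 and in the fit with the replicate block), 20 were above 0 and the median was -0.01. In Vc the median of the mitosis list was -0.12 with the drug, and edgeR called none there, with 4 lower at an unadjusted p under 0.05. The difference between the lines was not called for TOP2A (0.44, adjusted p = 0.184), MKI67 (0.52, adjusted p = 0.312) or CCNA2 (1.16, adjusted p = 0.551).

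Few markers of other cell types and states were called. LUM, which encodes the matrix proteoglycan lumican, was the only called gene among 7 tested stromal and endothelial markers, against 1.13% of all genes tested. It had 57.2 and 49.6 CPM in control and 73.9 and 81.1 CPM with enzalutamide (adjusted p = 0.00192). Its call was lost without control library 2 (adjusted p = 0.227) or enzalutamide library 2 (adjusted p = 0.137). The sum over those 7 markers was 101 and 107 CPM in control and 121 and 130 CPM with the drug. The mean rise of LUM alone, in CPM, was larger than that of this sum. Neuroendocrine and neural genes summed to 689 and 676 CPM in control and 781 and 748 CPM with enzalutamide. PEG10 rose and RELN fell (1.13% of all genes tested were called), and the other 16 of 18 tested were not called. The mean rise of PEG10 alone, in CPM, was larger than that of the neuroendocrine and neural sum. Basal epithelial genes summed to 250 and 254 CPM against 260 and 300 CPM, with none of 8 called by edgeR or DESeq2 and 2 at an unadjusted p under 0.05. Their median log2 change was 0.33 with 7 of 8 above 0, and 3 of the 8 had a mean under 1 CPM. Without single libraries that median ran from 0.091 (without enzalutamide library 2) to 0.39, and it was 0.15 without control library 2. The luminal epithelial list, with no call, gave 1 lower gene without control library 2. Neither edgeR nor DESeq2 called a gene on the lists for DNA damage response, apoptosis, interferon response, heat shock, ribosome biogenesis, oxidative phosphorylation, steroid synthesis or luminal epithelium, which had from 1 to 4 genes each at an unadjusted p under 0.05. Whether these marker levels bear on the results was not tested.

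The same 24 h of drug in Vc called 121 genes (0.537%), in libraries that the Ver comparison does not share. Without single Vc libraries it called 47 to 62, so the counts of shared genes depend on each library. Of the 149 genes lower in Ver, 40 were lower in Vc as well (26.9% of the Ver list and 46.5% of the 86 genes lower in Vc) and none was higher there. Among all 22553 genes tested 86 were called lower in Vc and 35 higher. In Vc 133 of the 149 had a change below 0, against 11098 of all 22553 genes tested. Without single Vc libraries the 40 became 23 to 32, of 32 to 51 genes lower in Vc. Of the 106 genes higher in Ver, 14 were higher in Vc (13.2% of the Ver list and 40.0% of the 35 genes higher in Vc). In Vc 93 of the 106 had a change above 0, against 11447 of all 22553 genes tested. The 14 became 6 or 7, of 11 to 15 genes higher in Vc. PMEPA1 fell by 0.70 log2 units in Vc, ERG by 0.45 and NPY by 0.68, and SHH rose by 0.55. On the androgen-induced list 11 genes fell in Vc against 15 in Ver, with medians of -0.17 and -0.16. Without single Vc libraries 9 to 11 did. On the ER chaperone list 4 fell in Vc against 11 in Ver, with medians of -0.12 and -0.22. The 4 became 7 by DESeq2, 3 without Vc enzalutamide library 1, and none without Vc control library 1 or Vc enzalutamide library 2. A larger number of calls in Ver is no test of a difference between the lines.

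That difference was tested directly, as the log2 change in Ver minus that in Vc. It was called for 5 genes (0.0222%), all with the more negative change in Ver, and 1374 genes had an unadjusted p under 0.05. TRPM8 had 90.3 and 90.2 CPM in Vc control and 63.6 and 69.5 CPM in Vc with enzalutamide, a log2 change of -0.44 against -1.301 in Ver (difference -0.86 ± 0.15, adjusted p = 0.00117). Its control levels differed between the lines, with 22.2 and 18.5 CPM in Ver. SLC45A3 changed by -0.45 in Vc, from 491 and 527 CPM to 366 and 379 CPM, and by -0.84 in Ver (difference -0.39 ± 0.07, adjusted p = 0.00138).

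RELN, which encodes the secreted matrix protein reelin, fell in Ver from 115 and 109 CPM to 75.5 and 79.0 CPM (log2 change -0.53). In Vc it had 13.6 and 13.7 CPM in control and 15.4 and 14.7 CPM with enzalutamide, and the difference was -0.68 ± 0.15 (adjusted p = 0.0381). For MIB2, a ubiquitin ligase that acts on Notch ligands, the change was -0.34 in Ver and 0.25 in Vc (difference -0.59 ± 0.13, adjusted p = 0.0429). The call of MIB2 within Ver (adjusted p = 0.0367) was made in 5 of 12 fits, and was lost by DESeq2 (adjusted p = 0.146) and without any 1 of the 4 libraries (adjusted p = 0.182 to 0.249). For AP5Z1, a subunit of the adaptor complex AP-5, it was -0.38 in Ver and 0.48 in Vc (difference -0.86 ± 0.19, adjusted p = 0.0381), though neither line alone was called. Without single libraries of the 8 in this test the number of genes called was 1 to 4. TRPM8 was called in 13 of 15 fits, SLC45A3 in 11, AP5Z1 in 7, RELN in 6 and MIB2 in 5.

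**Figure D4:**
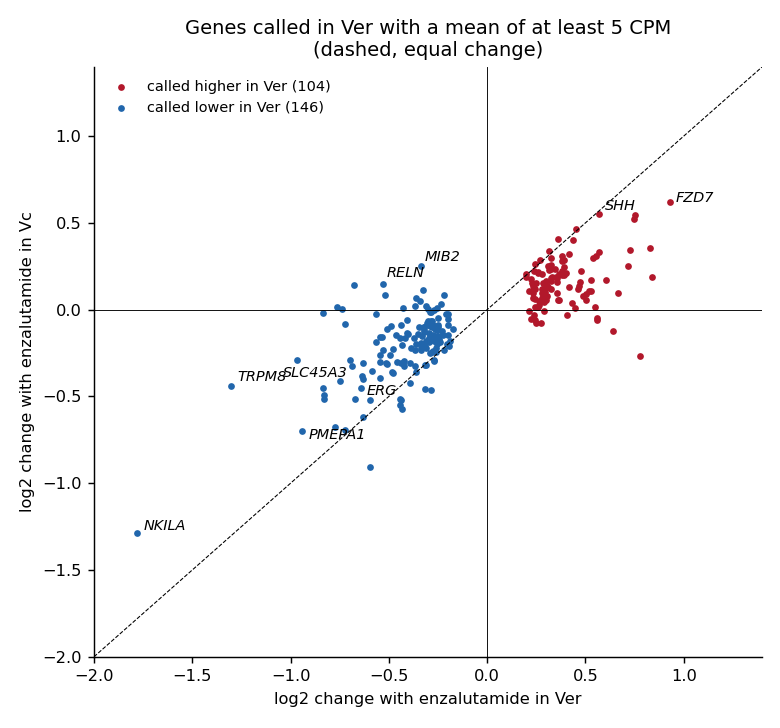
Each point is 1 of the 250 genes called in Ver with a mean of at least 5 CPM, placed by its log2 change with enzalutamide in Ver and in Vc, which share no libraries. The dashed line marks equal change; TRPM8 lies far to the left of the other genes at its height, and RELN and MIB2 have values below 0 in Ver and above 0 in Vc.

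The direction in which DHT moves each gene was read from the Vc libraries with and without DHT, where 21.8% of all genes were called higher and 22.5% lower. Of the 149 genes that enzalutamide lowered in Ver, 117 were raised by DHT in Vc (78.5% of them, and 2.38% of all genes that DHT raised), 15 were lowered and 17 were not called. Of the 106 genes that enzalutamide raised, 79 were lowered by DHT (74.5% of them, and 1.56% of all genes that DHT lowered), 12 were raised and 15 were not called. HYOU1 rose with DHT in Vc by 1.79 log2 units, SLC7A11 by 2.29 and HMGCS1 by 1.79. SHH fell with DHT by 3.79 log2 units, PEG10 by 1.997 and ACPP by 2.51. Most of these genes thus moved in opposite directions with the drug in Ver and with the androgen in Vc. The median log2 change of the lowered genes was -0.35 with the drug and 1.15 with DHT, and that of the raised genes 0.35 and -0.85.

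A smaller set moved the same way with drug and androgen, and these genes were picked out after their values were seen. Among the 15 lowered by both, NPY changed by -0.77 with enzalutamide in Ver and by -1.25 with DHT in Vc. SSTR1, a somatostatin receptor, fell from 45.2 and 43.0 CPM to 30.8 and 28.0 CPM with enzalutamide (log2 change -0.59) and by 1.29 log2 units with DHT. TMEFF2, a membrane protein of prostate and brain, changed by -0.45 and -1.23. The monoamine oxidase MAOA fell from 156 and 158 CPM to 111 and 97.5 CPM (log2 change -0.59) and by 0.40 with DHT. Among the 12 raised by both, SAT1 changed by 0.35 with enzalutamide in Ver and by 2.14 with DHT in Vc, and the transcription factor KLF6 by 0.38 and 1.15. The call of SSTR1 with enzalutamide was lost without enzalutamide library 2 (adjusted p = 0.0679) and that of KLF6 without any 1 of the 4 libraries (adjusted p = 0.0622 to 0.213).

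**Figure D5:**
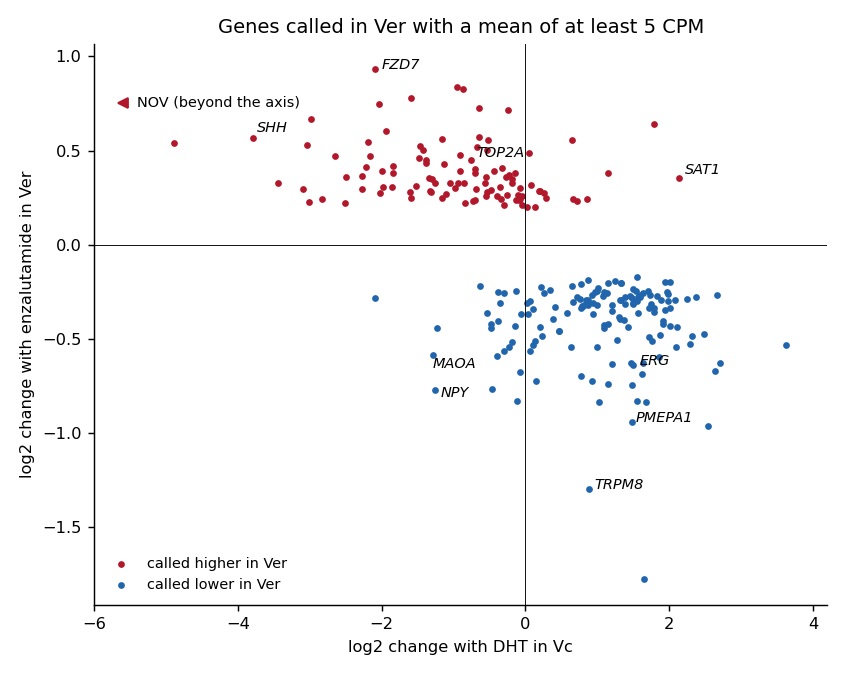
Genes called in Ver with a mean of at least 5 CPM, placed by their log2 change with DHT in Vc (horizontal) and with enzalutamide in Ver (vertical), measured in separate libraries. Most blue points lie at the lower right and most red points at the upper left; NPY and MAOA lie at the lower left and SAT1 at the upper right, and NOV, at 0 CPM in both DHT libraries, is drawn at the edge.

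With DHT present the same drug step in Ver, measured in 4 other libraries, called 13.7% of all genes higher and 13.2% lower. Of the 149 genes lower with enzalutamide alone, 94 were also lower on top of DHT (63.1% of them, and 3.16% of all genes lower on top of DHT) and 25 were higher. Of the 106 higher with enzalutamide alone, 65 were also higher on top of DHT (61.3% of them, and 2.1% of all genes higher on top of DHT) and 15 were lower. The difference between the drug effect with and without DHT was called for 16.7% of all genes. TMPRSS2 fell by 1.63 log2 units on top of DHT against 0.48 without it (difference -1.15 ± 0.08, adjusted p = 2.42e-26), and ERG fell by 1.14 against 0.64 (difference -0.50 ± 0.08, adjusted p = 3.5e-08).

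Several of the strongest falls without DHT were smaller or absent with it. PMEPA1 fell by 0.37 on top of DHT and by 0.94 without it (difference 0.57 ± 0.07, adjusted p = 4.59e-13). SLC45A3 rose by 0.21 on top of DHT where it had fallen without androgen (difference 1.05, adjusted p = 7.38e-29), and TRPM8 rose by 0.53 (difference 1.83, adjusted p = 2.54e-21). NPY rose by 1.75 on top of DHT after falling by 0.77 alone (difference 2.52, adjusted p = 3.02e-52). HSPA5 fell by 0.40 on top of DHT and by 0.39 without it, a difference of -0.01 ± 0.07 (adjusted p = 0.964). SHH rose by 0.97 on top of DHT and by 0.57 without it, and that difference was not called (0.41, adjusted p = 0.213).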

How the data were processed

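PolyA RNA of 16 VCaP libraries was sequenced, and groups were taken from the labels. For each library the authors deposited read counts per gene. These were made against GRCh38 with HISAT2, SAMtools and HTSeq 0.11.1 after FastQC 0.11.7 and Trimmomatic 0.36-5, per the submitters' processing notes, and the file names give union mode without strand. The authors also deposited a normalized signal per gene and library, used here for gene names only. Positions are from GENCODE 29.

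Counts were fitted with edgeR 4.0.16 in R 4.3.3 (filterByExpr by group, TMM, robust quasi-likelihood) over all 16 libraries in 8 groups, which gave 22553 genes, 8 residual degrees of freedom and a common biological coefficient of variation of 6.01%. The SE of a log2 change is a Wald SE from that fit or from Poisson counting, whichever was larger. The spread used for each gene came mostly from a trend over all genes and all 16 libraries (median prior degrees of freedom 138.1 against 8 residual). With 2 libraries a group, p-values measure only spread between libraries of the same group, pooled in this way, which may be technical. Tested on simulated data for this comparison (21611 genes), the fit recovered 50% of genes changed 1.3-fold, 50% at 1.5-fold, 88% at 2-fold and 100% at 3-fold (50 genes each), with 7 false calls. The changed genes all had a mean of at least 5 CPM over the 16 libraries, so recovery of weaker genes was not measured. Apart from these changes, each simulated gene had the same mean level in every group, with no DHT or line effect. Alternatives were DESeq2 1.42.0, other scaling, filters and libraries, a replicate block, and leaving out each library.

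The comparison and the 41 gene lists were chosen with earlier results of these data known, and lists are described by counts, with no set test. Named genes were a fixed set, the 12 largest rises and 12 largest falls among called genes of at least 5 CPM, the 5 smallest adjusted p in each direction, up to 4 members of smallest p per list with a call, members behind counts of 5 or fewer, and genes called for the difference between the lines. Other called genes named in a list or marked as picked afterwards were outside this rule. Some list members are not reported here.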

Additional observations from a re-analysis of the deposited data

Results flagged for a closer look

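The change with enzalutamide differed between Ver and Vc for 5 genes by edgeR's test of the difference itself. The log2 difference, Ver minus Vc, was -0.86 for TRPM8, -0.39 for SLC45A3, -0.68 for RELN, -0.86 for AP5Z1 and -0.59 for MIB2. TRPM8 and SLC45A3 fell in both lines, and by more in Ver. Within Ver, the drug's change with DHT differed from its change without DHT for 3767 genes. Lane and line cannot be told apart in the first test, while all libraries of the second share a lane.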

How the results depend on the processing

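The 255 genes called in Ver became 222 by DESeq2, 247 with size factors of the DESeq2 type, 228 without a filter on low counts and 179 with only the 8 Ver libraries (69 higher). Leaving out 1 library gave 112 to 174 genes (32 to 76 higher, 80 to 102 lower). The drug in Vc gave 47 to 62 when 1 library was left out. The difference between the lines gave 2 genes by DESeq2, 10 with only its own 8 libraries, and 1 to 4 without 1 library. Replicate numbers are in the labels, but with 2 pairs and a correlation of 0.07 between same-numbered control and enzalutamide libraries they were not taken as pairs. With the replicate number as a block 263 genes were called, and all 255 were among them. Of the genes named, those that changed sign under an alternative were not called in either fit. Without 1 library at a time, the log2 change of NR3C1 ran from -0.27 (without enzalutamide library 1; -0.16 without control library 2) to 0.35, that of ENG from -0.31 to 0.091 and that of ACTA2 from -0.51 to 0.11. The cause of these changes was not tested, beyond the smaller number of libraries. In the simulated data the fit recovered 50% of genes changed 1.3-fold, 50% at 1.5-fold and 88% at 2-fold. Changes up to about 1.5-fold, or in genes of few reads, are near the limit of this depth and number of libraries.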

Other observations

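3 families stood out after the values were seen, and they are given as values with no test. Of 54 tested replication-dependent histone genes 7 were called higher in Ver, against 0.47% of all genes tested, and none was called lower. Of the 54, 50 had a log2 change above 0 (median 0.32), against 11008 of all 22553 genes tested. None of the 7 was called in every fit: without enzalutamide library 2 the number kept was 4, and without any other 1 of the 4 libraries it was 3. The summed level of all 54 was 1029 and 1072 CPM in the control libraries and 1333 and 1225 CPM with enzalutamide. In Vc 33 of 54 were above 0, against 11447 of all 22553 genes tested. Their median there was 0.04 and edgeR called none. HIST1H1C, a linker histone, rose from 81.3 and 78.5 CPM to 99.2 and 107 CPM, and HIST1H3B, a core histone, from 29.6 and 33.3 CPM to 47.4 and 45.4 CPM. Of the 7 called genes 6 lie on chromosome 6 between 26031650 and 26216692. Most transcripts of this kind lack a poly(A) tail, so libraries of polyA RNA measure only a part of them.

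Of 20 tested cytosolic aminoacyl-tRNA synthetase genes, which charge transfer RNAs with amino acids, AARS, GARS, TARS, YARS, EPRS and MARS were called lower and none higher (median log2 change -0.13). Among all genes tested 0.661% were called lower. None of the 6 was called in every fit: DESeq2 called 3, a fit of the 4 libraries alone 2, and fits without control library 1, control library 2, enzalutamide library 1 and enzalutamide library 2 called 1, 2, 2 and 3. The summed level of all 20 was 1983 and 2019 CPM in control and 1803 and 1798 CPM with enzalutamide. AARS fell from 179 and 174 CPM to 153 and 143 CPM. In Vc 16 of 20 had a change below 0, against 11098 of all 22553 genes tested. None was called there by edgeR, with 9 lower at an unadjusted p under 0.05.

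On chromosome 19 between 51 and 54 Mb, 7 of 37 tested ZNF genes, which encode zinc finger proteins, were called lower, against 0.661% of all genes tested. None was called higher, and 28 of the 37 had a change below 0 (median -0.11), against 11539 of all 22553 genes tested. Without single libraries the number called lower was 2 to 4, lowest without enzalutamide library 1, and it was 3 in a fit of the 4 libraries alone. Of these 7, ZNF841, ZNF649, ZNF577, ZNF615, ZNF350 and ZNF614 start within 1 Mb, between 51804816 and 52095765. In Vc 1 of 37 was called lower and 26 had a change below 0, against 86 and 11098 of all 22553 genes tested. At an unadjusted p under 0.05, 8 were lower in Vc, and in Ver 8 were lower and 1 higher.

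Copies of the U1 small nuclear RNA had isolated high values in single libraries and were not called. RNVU1-7 was at 346 CPM in control library 2 and at 5.18 to 6.35 CPM in the other 3, and RNU1-1 was at 108 CPM in enzalutamide library 2 and at 1.16 to 2.59 CPM in the other 3.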
